A study of Homo sapiens with 2 samples.

Results

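Hepatocyte-enriched mature microRNAs (miRNAs) were examined on 2 single-colour arrays of Huh7 cells, an established human hepatocellular carcinoma line. The group holds 6 of the 1001 probes of the table, chosen by miRBase accession: miR-122-5p (MIMAT0000421), miR-192-5p (MIMAT0000222), miR-194-5p (MIMAT0000460), miR-215-5p (MIMAT0000272), miR-148a-3p (MIMAT0000243) and miR-885-5p (MIMAT0004947). One array came from cells given 10 µM Y27632, a small-molecule kinase inhibitor, for 12 hours, and 1 from cells labelled control, for which the title states neither a vehicle nor a time of harvest. The growth medium of both, Dulbecco's, held fetal bovine serum. All 6 miRNAs had a listed intensity on both arrays, and none differed by 1.5-fold between Y27632-treated and control cells, as deposited or under any of 6 other settings. Among the brighter 50% of probes listed on both arrays, only 1.15% passed that limit upward and 2.31% downward as deposited. Neither condition was replicated, so no test was made, and each difference is one between these arrays rather than between the conditions.

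A miRNA guides the silencing complex to messenger RNAs mainly through its seed, the bases near its 5′ end, and miRNAs with the same seed share many predicted targets. MiR-122 is the dominant miRNA of hepatocytes, where it restrains many transcripts and supports cholesterol and lipid metabolism, and hepatitis C virus needs it to replicate. MiR-192, miR-194 and miR-215 are made from paired precursors and are abundant in liver, gut and kidney. MiR-148a is abundant in liver and is known to target DNMT1, a DNA methyltransferase, and the LDL receptor, and miR-885-5p has been measured in serum as a marker of liver injury.

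The mature sequences are shown because the seed, in capitals (bases 2 to 8 from the 5′ end), sorts the 6 miRNAs into 5 seeds. All 6 names matched the RefSeq miRNA table (GRCh38.p14), from which the sequences were read.
miR-122-5p: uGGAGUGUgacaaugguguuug
miR-192-5p: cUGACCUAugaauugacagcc
miR-215-5p: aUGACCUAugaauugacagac
miR-194-5p: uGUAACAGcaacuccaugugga
miR-148a-3p: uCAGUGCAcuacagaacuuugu
miR-885-5p: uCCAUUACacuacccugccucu

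MiR-192-5p and miR-215-5p shared the seed and 19 of 21 bases, and differed by C1A and C20A, where the base of miR-192-5p comes first, then the position from its 5′ end, then the base of miR-215-5p. A probe for either could therefore also bind the other, and the signal from such binding was not tested. The other 4 seeds each belonged to a single member. Among the 2370 mature names of the RefSeq table, no further miRNA carried the seed of miR-122-5p, miR-194-5p or miR-885-5p, whereas miR-148b-3p and miR-152-3p carried that of miR-148a-3p. These relatives are shown for how little separates them from miR-148a-3p on a hybridisation array.
miR-148b-3p: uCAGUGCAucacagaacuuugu
miR-152-3p: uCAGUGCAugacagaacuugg
MiR-148b-3p shared 20 of 22 bases with miR-148a-3p and differed by C9U and U10C. MiR-152-3p shared 18 of the first 21 bases and differed by C9U, U10G and U20G. The tables used here pair neither of them with an accession of the array, so no value is given for them.

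The precursors lie at 7 loci on 5 chromosomes (GRCh38.p14 coordinates throughout). MIR122, at chr18:58451074-58451158 on the plus strand, lies inside the span of the long noncoding gene MIR122HG and carries miR-122-5p on the 5′ arm of its hairpin (bases 15 to 36 of 85, in capitals). The span of another miRNA gene, MIR3591, overlaps this hairpin. MiR-3591-5p has a different seed but shares 18 of its first 22 bases with miR-122-5p. Whether the miR-122-5p probe also binds it was not tested. The MIR122 hairpin is shown because it is the precursor of the brightest member.
MIR122 hairpin: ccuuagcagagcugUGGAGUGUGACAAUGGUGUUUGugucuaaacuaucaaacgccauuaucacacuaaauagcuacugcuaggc
MIR192 (chr11:64891137-64891246, minus strand) and MIR194-2 (chr11:64891355-64891439, minus strand) are separated by 108 bases, both within the span of the long noncoding gene MIR194-2HG. MIR215 (chr1:220117853-220117962, minus strand) and MIR194-1 (chr1:220118157-220118241, minus strand) are separated by 194 bases and lie within the spans of IARS2 and of a long noncoding gene without an approved name. The mature miR-194-5p sequence is identical at both of its loci, so 1 probe reads the product of both. MIR148A (chr7:25949919-25949986, minus strand) carries miR-148a-3p on its 3′ arm and also lies within the span of such an unnamed noncoding gene. MIR885 (chr3:10394489-10394562, minus strand) lies within the span of ATP2B2. The gene table gives spans without exons, so exonic and intronic positions were not assigned. Overlaps were taken by coordinates without regard to the strand of the overlapping gene, so no host gene was assigned.

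The deposited values are array intensities, listed for 614 probes on the Y27632 array and 619 on the control array, with 519 listed on both. The median listed intensity was 6.1 on the Y27632 array and 6.0 on the control array. The 10 brightest probes carried 80.3% of the summed intensity on the Y27632 array and 78.7% on the control array, and no member was among them. Markers of other cell types were not evaluated because no table paired them with accessions, so the values do not test the liver origin of the cells. Together the 6 members carried 1.15% of the sum on the Y27632 array (1439.7 of all listed intensity) and 1.14% on the control array (1362.6). Without the 10 brightest probes of each array, the members' shares were 5.84% on the Y27632 array and 5.37% on the control array.

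MiR-122-5p, the dominant hepatocyte miRNA, was the brightest member. Its intensity was 735.3 on the Y27632 array and 677.8 on the control array, ranks 17 and 19 among the probes listed on each. This was 121 times the median listed intensity in Y27632-treated cells and 113 times that in control cells. It made up 51.1% of the members' summed intensity on the Y27632 array and 49.7% on the control array. MiRBase accession numbers broadly follow the order of registration. Of the 251 probes with the lowest numbers, 181 were listed on the Y27632 array and 189 on the control array. Among these listed probes miR-122-5p ranked 6 in Y27632-treated cells and 8 in control cells. These smaller rank numbers come from ranking fewer probes and do not mean a higher standing. Intensities of different probes do not rank miRNAs by abundance, because probes differ in how brightly they bind.

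The products of the paired precursors came next and last in brightness. MiR-194-5p had an intensity of 308.2 on the Y27632 array and 280.6 on the control array, at ranks 31 and 33. MiR-192-5p had an intensity of 243.0 on the Y27632 array and 244.9 on the control array and held rank 38 on both. MiR-215-5p, which has the seed of miR-192-5p, was the dimmest member, at 14.4 on the Y27632 array and 14.7 on the control array. Its ranks were 170 in Y27632-treated cells and 178 in control cells, and its intensity was 2.36 times the median on the Y27632 array and 2.45 times that on the control array. The probe for miR-192-5p was thus among the brightest 6.19% of listed probes in Y27632-treated cells and 6.14% in control cells, while that for its seed partner was among the brightest 27.7% in Y27632-treated cells and 28.8% in control cells.

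MiR-148a-3p and miR-885-5p had intermediate intensities. MiR-148a-3p read 73.6 on the Y27632 array (rank 76) and 77.9 on the control array (rank 74, shared with 1 other probe). MiR-885-5p read 65.2 on the Y27632 array (rank 80) and 66.7 on the control array (rank 81). The order of the 6 members, miR-122-5p, miR-194-5p, miR-192-5p, miR-148a-3p, miR-885-5p and miR-215-5p from bright to dim, was the same on both arrays. Whether neighbours in this order differ beyond replicate spread cannot be said from 1 array per condition.

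**Figure D1:**
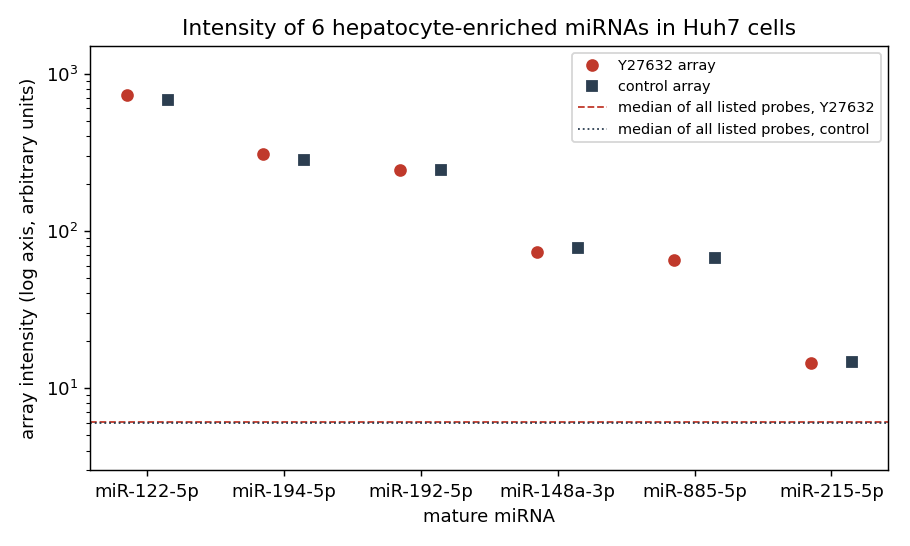
Array intensity (log axis, arbitrary units) of each of the 6 miRNAs, with circles for the Y27632 array, squares for the control array and lines for the median of all probes listed on each array (6.1 and 6.0). The 6 miRNAs keep the same order on both arrays, from miR-122-5p at 735.3 and 677.8 to miR-215-5p at 14.4 and 14.7, all above the array medians.

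Intensities in Y27632-treated cells were set against those in control cells to ask whether these miRNAs differ after the treatment. None of the 6 reached a 1.5-fold difference in either direction, a limit set with earlier results of these data known. Among the 260 probes in the brighter 50% by mean log2 intensity, which include all 6 members, 1.15% passed that limit upward in Y27632-treated cells and 2.31% passed it downward, so a count of 0 among 6 is near that background. As deposited, all 6 lay within 1.1-fold, a limit chosen after the values were seen, as did 45% of the brighter 50% and 58.5% of the 130 probes in the brightest 25%, which hold every member but miR-215-5p. That count was 5 of 6 under median centring, quantile normalization and lowess, and 4 of 6 relative to the 20 nearest probes. The share of all probes within 1.1-fold was not computed under these settings, so these counts have no background beside them.

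The median log2 ratio of Y27632 over control was −0.02 for the 6 members, with a range of −0.08 to 0.14. It was −0.03 in the brighter 50%, with quartiles of −0.22 and 0.12, and 0.00 over all 519 probes. As deposited the ratio was above 0 for 2 members and below 0 for 4. Of the 260 probes in the brighter 50%, 113 were above 0 and 145 below. Of all 519 probes, 252 were above and 254 below. The members' split depended on the scaling, with 5 above and 1 below after the lowess correction. After quantile normalization 4 were above, 1 at 0 and 1 below. Counts over all probes were not taken under those 2 settings, but the median over all 519 was 0.005 after lowess and 0 after quantile normalization. The members' summed intensity on the Y27632 array was 1.06 times that on the control array. Within it, miR-122-5p was 57.5 intensity units higher and miR-194-5p 27.6 higher, while the difference of Y27632 minus control was −4.3 for miR-148a-3p.

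The members above 0 were also the brightest. MiR-194-5p had the largest log2 ratio, at 0.14 (1.1 times its control intensity), and miR-122-5p was at 0.12 (1.08 times). As a scale, each ratio was set against the 100 probes nearest in mean intensity, whose spread mixes technical noise and any effect of treatment. MiR-194-5p lay 1.14 robust SDs (scaled median absolute deviation) above the median of its neighbours, of which 86 had a lower ratio and 14 a higher one. MiR-122-5p lay 0.94 robust SDs above, with 83 neighbours lower and 17 higher. Because bright probes are few, its neighbours ran from 38.4 to 8210 in mean intensity and only 14 of them were brighter. Against the nearest 20 probes, a narrower band added after seeing the data, miR-194-5p was higher than 19 and lay 1.61 robust SDs above their median, and miR-122-5p was likewise higher than 19 and lay 1.20 above.

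The remaining members were closer to the median of their 100 neighbours, at up to 0.24 robust SDs from it. MiR-192-5p had a log2 ratio of −0.01 and lay 0.11 robust SDs above the median of the 100 nearest probes, of which 56 were lower and 44 higher. MiR-215-5p had a log2 ratio of −0.03 and lay 0.018 robust SDs above its neighbours' median. Its neighbours were dimmer and more widely spread, with a robust SD of 0.30 against 0.15 for those of miR-192-5p. MiR-885-5p had a log2 ratio of −0.03 and lay at −0.021 robust SDs from the median of its neighbours. MiR-148a-3p had the lowest ratio, −0.08 (0.945 times its control intensity), and lay 0.24 robust SDs below its neighbours' median, with 38 lower and 62 higher. Against the nearest 20 probes it lay at −0.66 robust SDs, with 4 lower and 16 higher. On that narrower scale miR-192-5p lay at 0.05, miR-215-5p at 0.05 and miR-885-5p at −0.04 robust SDs.

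**Figure D2:**
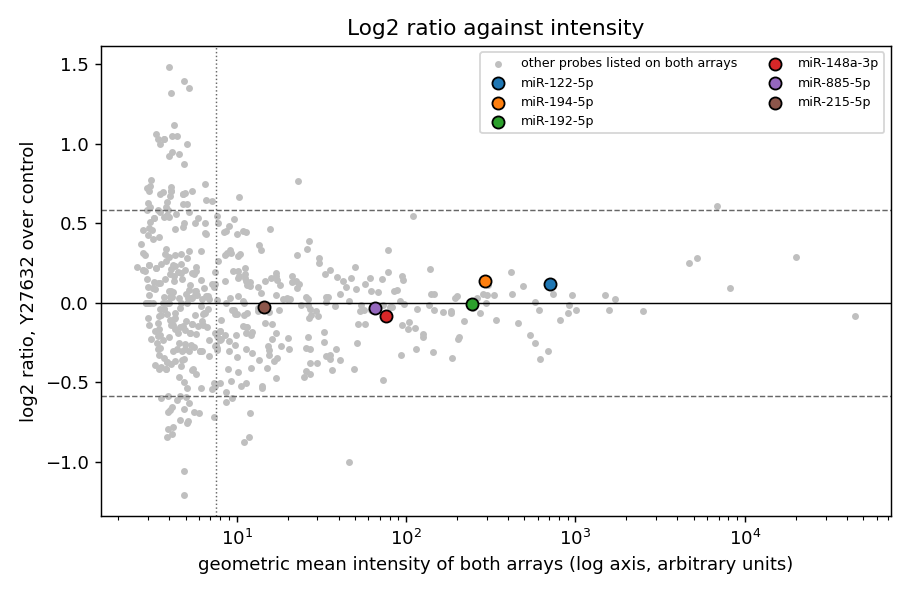
Log2 ratio of Y27632 over control against the geometric mean intensity of both arrays (log axis) for the 519 probes listed on both, with the 6 miRNAs in colour. Dashed lines mark 1.5-fold either way and the dotted line the lower bound of the brighter 50% (7.57). All 6 miRNAs lie between −0.08 and 0.14, well inside the dashed lines, while grey points spread further at low intensity.

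The deposited values carry 1 decimal, which limits the dimmest member most. Rounding alone allowed the log2 ratio of miR-215-5p to lie between −0.040 and −0.020, and that of miR-122-5p between 0.117 and 0.118.

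Members with neighbouring hairpins or the same seed were compared by their ratios. MiR-192-5p and miR-194-5p, which can arise from the same MIR194-2HG span, had log2 ratios of −0.01 and 0.14. Their difference of −0.15 was 0.98 times the larger of their neighbours' robust SDs. MiR-215-5p and miR-194-5p, the pair on chromosome 1, had log2 ratios of −0.03 and 0.14, and miR-194-5p minus miR-215-5p was 0.17, or 0.55 times the larger robust SD. MiR-192-5p and miR-215-5p, which share the seed, differed by 0.02 on the log2 scale. Over all 15 pairs of members, the largest difference was that of miR-194-5p minus miR-148a-3p, at 0.22, or 1.14 times the larger robust SD. The only other pair above 1 robust SD was miR-122-5p minus miR-148a-3p, at 0.20 (1.05 times). Each robust SD here is the spread of single ratios. A difference between 2 ratios can vary more than that, so a multiple above 1 is not a call.

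The signs of the 3 members nearest to 0 depended on how the arrays were scaled. Under 6 other settings the log2 ratio of miR-122-5p stayed between 0.12 and 0.19, that of miR-194-5p between 0.07 and 0.17 and that of miR-148a-3p between −0.09 and −0.04. MiR-192-5p ranged from −0.01 to 0.03, miR-215-5p from −0.07 to 0.08 and miR-885-5p from −0.04 to 0.01, so no direction is given for these 3. The signs of miR-122-5p, miR-194-5p and miR-148a-3p stayed the same, but every setting reused the same arrays, so replicate spread was not tested. Adding a pseudocount cannot change a sign. Lowering the Y27632 values by 0.4 could not reverse these members' intensity differences of 57.5, 27.6 and −4.3, in that order. Their constant signs therefore do not give a direction for the treatment.

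**Figure D3:**
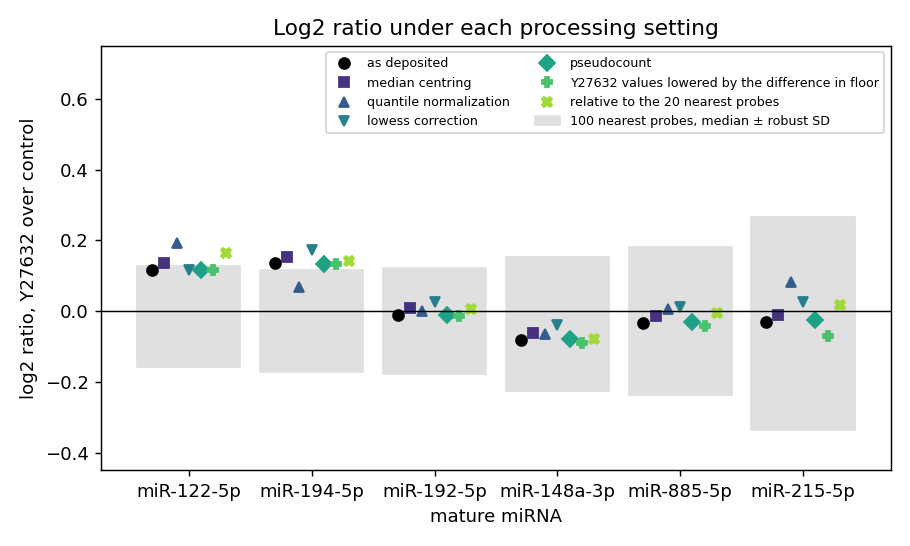
Log2 ratio of Y27632 over control for each of the 6 miRNAs as deposited (black circles) and under 6 other settings (other symbols), with grey bars for the median ± robust SD of the 100 probes nearest in intensity. MiR-122-5p and miR-194-5p are above 0 under every setting drawn, miR-148a-3p is below 0, and miR-192-5p, miR-215-5p and miR-885-5p fall on both sides of 0.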

How the data were processed

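Total RNA was isolated with ISOGEN and labelled with the dye Hy5 by an Exiqon miRCURY kit, per the labels' protocols. The deposited values are 1 intensity per probe and array with 1 decimal. A linear scale is inferred from their range, and what the authors did for background, normalization and detection, with which software, is not given in the sources used here. The number of arrays (2) limits the precision, and no p-value is given.

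Groups came from the sample titles. The 6 accessions were paired with names by the rule that defines the group. Reference tables held 0 accessions of this kind, so opposite arms, seed relatives, other liver-linked miRNAs and markers of other cell types were not evaluated, and the Huh7 label was not checked against other markers. No other miRNA is named with a value. The members and lists were chosen with earlier results of these data known.

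Log2 ratios of Y27632 over control used the deposited intensities without further normalization or pseudocount. The call was a 1.5-fold difference, a limit lowered from 2-fold with earlier results of these data known. Alternatives were median centring, quantile normalization, lowess (fraction 0.4), a pseudocount of 3.0 (mean 10th percentile), Y27632 values lowered by 0.4 (the difference between the arrays' lowest values), a higher and a lower fold limit, and ranks among probes listed on both arrays. The 20 nearest probes, a 1.1-fold limit and ranks within low accession numbers were added after seeing the data. Python 3.11.15, numpy 2.4.6, pandas 2.3.3, statsmodels 0.14.6 and matplotlib 3.10.9 were used.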

Additional observations from a re-analysis of the deposited data

How the results depend on the processing

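Under median centring, quantile normalization, lowess, the pseudocount, the lowered Y27632 values and the ratio relative to the 20 nearest probes, 0 of the 6 members reached 1.5-fold. As deposited, 0 passed any of the other fold limits. Each member's log2 ratio moved by less than the robust SD of its 100 nearest probes, at most by 0.54 of it (miR-122-5p under quantile normalization, 0.19). The members' median log2 ratio ran from −0.03 to 0.04. Over all 519 probes the median ran from −0.06 with the lowered Y27632 values to 0.02 under median centring. At 1.1-fold, 1 member was past the limit under median centring, quantile normalization and lowess, and 2 were past it relative to the 20 nearest probes. The share of all probes past 1.1-fold was not computed under these settings. Control ranks moved by at most 1 among probes listed on both arrays. Of the 251 lowest-numbered accessions, 189 were listed on the control array. Among these the control ranks were 8 for miR-122-5p, 20 for miR-194-5p, 23 for miR-192-5p, 45 for miR-148a-3p and 89 for miR-215-5p. The rank numbers are smaller because fewer probes were ranked, and they do not mean a higher standing. Relative to the number of probes ranked, each of these members stood lower here than among all 619 listed on the control array. Rank 89 of 189 put miR-215-5p near the middle, against the brightest 28.8% of all probes listed on that array. Ranks among probes named as miRNAs by a reference table were not run, since no table paired the accessions. No paired analysis was possible because neither condition was replicated. Signal over background could not be examined.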
